A study of Mus musculus with 18 samples.

Results

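Solute carrier (Slc) genes were described here as all genes that the deposited table marks as protein-coding and whose symbol starts with Slc and a number. The table marks 3 further Slc rows otherwise, and they were left out. These were Slc25a14 (marked nonsense-mediated decay), Slc27a1 (marked retained intron) and the processed pseudogene Slc39a1-ps. There were 174 members among 10897 genes, spread over 46 numbered families, 14 of which had a single member by this rule. Of the 174, 4 are named for a carrier without being one: Slc4a1ap, Slc7a6os, Slc9a3r1 and Slc9a3r2. The other 170 were counted as carriers by name and family, and they include subunits of carriers such as Slc3a2 and Slc51b. Each family number groups carriers of related sequence, and the letter and last number name the gene.

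RNA of mouse colorectal tissue was sequenced in 3 groups of 6 libraries each, and the labels do not say whether tumour or other tissue was taken. The GF-AOMS group was labelled as germ-free mice given azoxymethane (AOM), a colon carcinogen, and cigarette smoke, and the GF-AOM group as germ-free mice given AOM without smoke. The Control group was labelled in one field as specific pathogen free (SPF) mice with AOM-induced cancer, while the treatment protocol lists it as a normal control beside the AOM groups. The protocols name male C57BL/6J mice of 10 weeks kept in an SPF facility, without excepting the germ-free groups, and all libraries carry the same batch label. GF-AOM against Control is therefore a comparison of germ status under the first reading and includes AOM under the second, and these cannot be told apart; GF-AOMS against Control also includes smoke. GF-AOMS against GF-AOM is the smoke comparison under both readings. The labels give 6 samples a group without saying in words that each came from its own animal, so the p-values cover sample-to-sample spread, which may be technical.

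Solute carriers move ions, sugars, amino acids, vitamins, metals and nucleotides across cell and organelle membranes, each down a gradient or coupled to one. In the colon, surface epithelial cells absorb sodium and chloride through a paired sodium/proton exchanger and chloride/bicarbonate exchanger, and take up bacterial short-chain fatty acids through monocarboxylate carriers. Other families serve every cell. Most Slc25 carriers lie in the inner mitochondrial membrane, and many Slc35 carriers supply the Golgi and endoplasmic reticulum with nucleotide sugars. Slc30 and Slc39 carriers move zinc in opposite directions. Slc26a3 (ENSMUSG00000001225, GRCm38 chr12:31390871-31473917, plus strand), the chloride/bicarbonate exchanger of the colon surface, was used to check the tissue and was present in every library. It lay between 61.1 and 389 CPM (counts scaled to library size).

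Among the 174 members, 3 were lower in both GF-AOMS against Control and the germ-free groups combined against Control, and the stretch around their start sites is shown for that reason. They were Slc30a1, Slc35d1 and Slc35f5. The sequences are RefSeq's, on GRCm38.p6, and run from 250 bases before the start to 50 after it, 5′ to 3′ on the gene's own strand. They cover chr1:191906531-191906830 (plus strand) for Slc30a1, chr4:103215127-103215426 (minus strand) for Slc35d1 and chr1:125560345-125560644 (plus strand) for Slc35f5. Capitals mark matches to the 2 forms of the metal response element core that were searched on both strands, TGCGCNC and TGCACNC.
Slc30a1: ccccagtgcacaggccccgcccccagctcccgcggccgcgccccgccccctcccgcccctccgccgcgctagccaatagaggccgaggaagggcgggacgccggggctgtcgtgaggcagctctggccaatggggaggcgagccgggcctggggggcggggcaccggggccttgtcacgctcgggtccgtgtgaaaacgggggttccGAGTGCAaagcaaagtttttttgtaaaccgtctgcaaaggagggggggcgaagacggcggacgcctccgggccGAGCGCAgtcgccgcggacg
Slc35d1: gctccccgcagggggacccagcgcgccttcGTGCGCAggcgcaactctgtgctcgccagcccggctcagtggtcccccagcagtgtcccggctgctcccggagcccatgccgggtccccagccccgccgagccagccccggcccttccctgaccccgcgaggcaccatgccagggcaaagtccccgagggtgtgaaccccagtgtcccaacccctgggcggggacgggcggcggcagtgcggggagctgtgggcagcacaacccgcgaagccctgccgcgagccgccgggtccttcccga
Slc35f5: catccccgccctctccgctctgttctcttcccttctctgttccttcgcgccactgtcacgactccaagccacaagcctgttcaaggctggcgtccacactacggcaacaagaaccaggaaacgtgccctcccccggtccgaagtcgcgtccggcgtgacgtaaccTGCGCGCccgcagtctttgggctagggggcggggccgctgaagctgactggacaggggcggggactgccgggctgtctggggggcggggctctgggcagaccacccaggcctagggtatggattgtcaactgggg

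Metal response elements are the sites of the zinc-sensing factor MTF1, which drives Slc30a1 in mouse cells. The Slc30a1 window held the TGCACNC form starting at base 208 and the TGCGCNC form at base 281, both on the minus strand relative to the gene, and no match overlapped another in these windows. Slc35d1 held the TGCGCNC form at base 31 and Slc35f5 at base 166. A window was found for 132 of the 174 members and for 9 of the 10 that passed the test in the combined comparison. The TGCGCNC form stood in 15.5% of 27025 mouse windows, in 28% of the members' windows and in 6 of those 9. The TGCACNC form stood in 12.4% of all windows, in 17.4% of the members' and in 2 of the 9, Slc30a1 and Slc37a4. GC content was 73% for Slc30a1, 75.3% for Slc35d1 and 66% for Slc35f5, against a median of 52.7% over all windows. Another motif, TTTATG, the core bound by CDX and HOX factors, stood in 12.1% of all windows, in 6.06% of the members' and in 1 of the 9, Slc27a4. The windows compared were not matched for GC content, and the part of base makeup in these shares was not tested. Such matches describe letters and not bound sites.

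Levels per length (FPKM, fragments scaled to gene length and library depth, averaged over all libraries) spread widely. Of the members, 72 averaged under 5 FPKM and 9 averaged at least 50. The member with the highest level was Slc25a5, an ADP/ATP carrier of the inner mitochondrial membrane, at 731.5 FPKM. Slc25a5 has near-identical processed pseudogenes, and counting may have split its reads. The mitochondrial phosphate carrier Slc25a3 followed at 123 FPKM, then the scaffold Slc9a3r1 (NHERF1) at 72.9 FPKM, the Golgi CMP-sialic acid carrier Slc35a1 at 70.4 FPKM and Slc25a39, a mitochondrial glutathione carrier, at 65.9 FPKM. Slc26a3 averaged 28.2 FPKM. By role, the median member level was 9.02 FPKM for a class of 23 made of the nucleotide sugar transporter family (Slc35) and the acetyl-CoA carrier Slc33a1. It was 7.31 FPKM for the 32 members of the mitochondrial carrier family (Slc25) and 3.60 FPKM for the 13 carriers of vitamins, nucleosides and choline. The other carrier roles had medians between 6.08 and 7.07 FPKM.

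**Figure D1:**
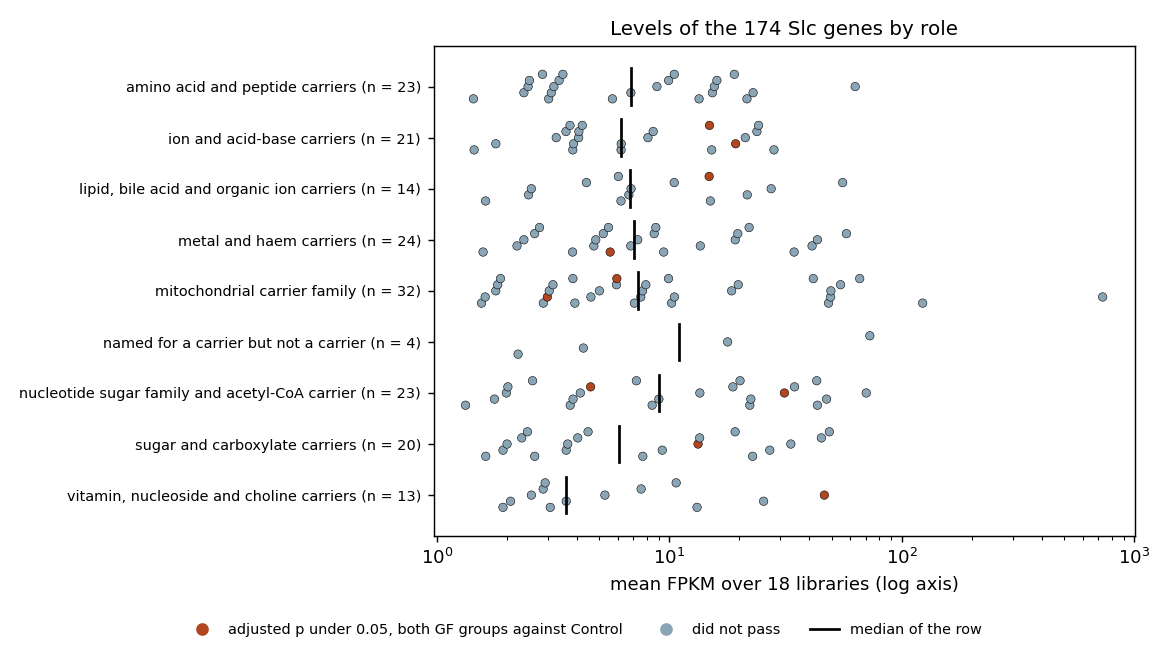
Mean FPKM over all libraries (log axis) of each of the 174 Slc members, grouped by role. Each point is 1 gene, bars are medians, red points passed between both germ-free groups and Control, and Slc25a5 at 731.5 FPKM stands above every other member.

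Library totals, in units of 1e+06 counts, were 48.95 to 55.97 in GF-AOMS, 50.75 to 65.36 in GF-AOM and 49.9 to 79.23 in Control. The members took 0.763% to 1.60% of counts in GF-AOMS, 0.962% to 1.497% in GF-AOM and 1.13% to 1.58% in Control, and these ranges overlap widely. GF-AOMS replicate 2 had the lowest share and the lowest TMM factor, 0.72. Control libraries fell into subsets. Hoxa13, a patterning gene kept on in the distal colon and rectum, lay between 24.7 and 53.5 CPM in all 12 germ-free libraries and at 42.0 and 38.7 CPM in Control replicates 1 and 2, but at 3.05 CPM or less in Control replicates 3 to 6. A second fit carried a term for this subset, called the colon position term below, which compares the germ-free libraries in effect with the 2 Control libraries that share their Hoxa13 level. For the members called below, the value with that term is given as well.

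The largest set of changes among Slc genes was between both germ-free groups together (12 libraries) and Control (6 libraries). Of the 174 members, 10 passed an adjusted p under 0.05, and 9 of these were lower in the germ-free libraries. That is 5.75% of members, against 2.65% of all 10897 genes, of which 2.25% were lower and 0.404% higher. The edgeR quasi-likelihood test with Benjamini-Hochberg adjustment over all genes gave these calls, and DESeq2 called 24 members, against 6.37% of all genes. At an unadjusted p under 0.05 there were 57 members, 32.8% against 22% of all genes. The median member difference was -0.10 on the log2 scale, against 0.00 over all genes, and 116 members (66.7%) were negative, against 49.9% of all genes. With the colon position term, 0 members passed, against 0.00918% of all genes, and the smallest adjusted p among members was 0.966. With that term 7 members had an unadjusted p under 0.05 (4.02%, against 3.53% of all genes). The median with the term was -0.05 against 0.02 over all genes. Values of the groups overlapped for all 174 members here, in GF-AOMS against Control, in GF-AOM against Control and in GF-AOMS against GF-AOM, while they did not overlap for 0.165%, 0.798%, 0.762% and 0.0642% of all genes in those comparisons. In bulk tissue, fewer cells of a type and less RNA per cell cannot be told apart.

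Among 24 carriers of metals and haem, 1 fell in the germ-free groups. Slc30a1 (ENSMUSG00000037434, GRCm38 chr1:191906767-191913247), the plasma membrane zinc exporter ZnT1, had 30.6, 20.2, 31.3, 24.8, 27.4 and 27.2 CPM in the GF-AOMS libraries, 27.4, 25.8, 29.1, 33.3, 23.6 and 29.5 CPM in the GF-AOM libraries, and 47.2, 31.3, 43.4, 51.2, 49.8 and 39.6 CPM in the Control libraries. Of the Control libraries, 5 lay above all 12 germ-free libraries, and Control replicate 2 did not. Both germ-free groups together were lower by a log2 difference of -0.67 (SE 0.11; edgeR, Benjamini-Hochberg adjusted p = 0.00608), and -0.51 (SE 0.16) with the colon position term. The zinc importer of the gut Slc39a4 (ZIP4) ranged over 69.5 to 141 CPM in GF-AOMS, 46.1 to 139 CPM in GF-AOM and 99.0 to 295 CPM in Control, a log2 difference of -0.85 (SE 0.24; edgeR adjusted p = 0.0581), and -0.41 with the position term. Metallothioneins, small zinc-binding proteins also driven by MTF1, were looked up after the values were seen, and differed by -0.15 for Mt1 (edgeR adjusted p = 0.662) and -0.12 for Mt2 (edgeR adjusted p = 0.822) on the log2 scale. With the position term both turned sign, to 0.26 for Mt1 and 0.29 for Mt2.

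In the class of 23 made of Slc35 family members and Slc33a1, 2 fell. Slc35d1 (ENSMUSG00000028521, GRCm38 chr4:103170649-103215164, minus strand) carries UDP-glucuronic acid and UDP-N-acetylgalactosamine into the endoplasmic reticulum. It had 20.2, 16.1, 32.6, 27.1, 22.0 and 25.4 CPM in the GF-AOMS libraries, 21.1, 29.9, 19.2, 39.0, 20.0 and 25.2 CPM in the GF-AOM libraries, and 30.9, 16.9, 116, 126, 114 and 72.3 CPM in the Control libraries. Control replicates 1 and 2 lay within the germ-free range and Control replicates 3 to 6 above it. The log2 difference was -1.68 (SE 0.31; edgeR, Benjamini-Hochberg adjusted p = 0.00901), but 0.05 with the colon position term. Slc35f5 (ENSMUSG00000026342, GRCm38 chr1:125560595-125595820, plus strand), a Slc35 family member to which no cargo is assigned here, had 102, 62.4, 91.0, 75.7, 77.5 and 81.8 CPM in the GF-AOMS libraries, 74.1, 73.2, 107, 105, 77.1 and 93.4 CPM in the GF-AOM libraries, and 101, 118, 171, 188, 121 and 173 CPM in the Control libraries. Of the Control libraries, replicate 1 lay within the germ-free range and the other 5 above it. Its log2 difference was -0.77 (SE 0.14; edgeR adjusted p = 0.0089), and -0.36 (SE 0.18) with the position term. The median over the 23 members was -0.02.

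Ion carriers of the membrane gave 2 calls among 21 members, both lower in the germ-free groups. Slc4a2 (AE2), an anion exchanger that loads chloride into the cell in return for bicarbonate, had 106, 95.2, 162, 106, 121 and 121 CPM in the GF-AOMS libraries, 73.7, 131, 106, 148, 114 and 112 CPM in the GF-AOM libraries, and 164, 102, 225, 229, 202 and 181 CPM in the Control libraries. The germ-free groups differed from Control by a log2 of -0.66 (SE 0.16; edgeR adjusted p = 0.0372), and -0.19 with the position term. Slc9a2 (NHE2), an apical sodium/proton exchanger, had 110, 72.6, 171, 110, 109 and 110 CPM in the GF-AOMS libraries, 92.1, 106, 99.8, 201, 81.3 and 149 CPM in the GF-AOM libraries, and 171, 105, 289, 335, 203 and 194 CPM in the Control libraries. Its log2 difference was -0.88 (SE 0.23; edgeR adjusted p = 0.0452), and -0.23 with the position term. For both genes the lowest Control library was replicate 2, which lay within the germ-free range, as did replicates 1 and 6 for Slc9a2.

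Carriers of lipids and vitamins gave 1 call each. Slc27a4 (FATP4), which takes up long-chain fatty acids, had 60.0, 52.2, 76.2, 63.4, 51.9 and 58.5 CPM in the GF-AOMS libraries, 49.2, 60.2, 48.9, 78.4, 53.0 and 57.3 CPM in the GF-AOM libraries, and 72.8, 49.2, 114, 159, 116 and 101 CPM in the Control libraries. Control replicates 1 and 2 lay within the germ-free range. The log2 difference for Slc27a4 was -0.79 (SE 0.18; edgeR adjusted p = 0.0247), and -0.05 with the position term. Slc44a4, known in human colon as the carrier of thiamine pyrophosphate, had 94.1, 86.3, 187, 122, 135 and 162 CPM in the GF-AOMS libraries, 110, 155, 100, 152, 92.0 and 118 CPM in the GF-AOM libraries, and 208, 136, 304, 277, 230 and 227 CPM in the Control libraries. Only Control replicate 2 lay within the germ-free range. The log2 difference was -0.87 (SE 0.18; edgeR adjusted p = 0.0155), and -0.45 with the position term. Of the 14 carriers of lipids, bile acids and organic ions 12 were negative (median -0.24 on the log2 scale, -0.06 with the term), as were 11 of the 13 carriers of vitamins, nucleosides and choline (median -0.17, -0.04 with the term).

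Of the 32 members of the mitochondrial carrier family 2 fell. Slc25a22, a glutamate carrier, had 13.5, 16.9, 16.3, 15.9, 20.5 and 20.0 CPM in the GF-AOMS libraries, 11.6, 23.2, 11.9, 20.0, 18.1 and 14.4 CPM in the GF-AOM libraries, and 35.5, 18.1, 22.7, 29.9, 32.0 and 22.2 CPM in the Control libraries. Its log2 difference was -0.67 (SE 0.16; edgeR adjusted p = 0.0372), and -0.67 (SE 0.25) with the position term, the same size with a wider error. Control replicates 2, 3 and 6 lay within the germ-free range and Control replicates 1, 4 and 5 above it. Slc25a34 averaged 13.6 ± 3.32 CPM in GF-AOMS, 13.2 ± 4.49 CPM in GF-AOM and 26.4 ± 9.58 CPM in Control (SD, n = 6 each), and Control replicates 1 and 2, at 12.3 and 17.6 CPM, lay within the germ-free range. On the log2 scale it differed by -0.98 (SE 0.22; edgeR adjusted p = 0.0237), and -0.16 with the position term. The family as a whole was mixed: 18 of 32 were negative.

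Slc37a4 was the 1 member that rose. It carries glucose-6-phosphate into the endoplasmic reticulum, where glucose is released. It had 57.3, 44.0, 46.4, 57.6, 41.1 and 43.6 CPM in the GF-AOMS libraries, 53.0, 43.2, 50.2, 43.6, 44.9 and 48.5 CPM in the GF-AOM libraries, and 30.9, 44.1, 31.5, 40.0, 31.7 and 36.1 CPM in the Control libraries. All 12 germ-free libraries lay above the Control mean, and Control replicate 2 lay within their range. The log2 difference was 0.42 (SE 0.10; edgeR, Benjamini-Hochberg adjusted p = 0.0347), and 0.35 with the position term. For each of the 9 members that fell, all 12 germ-free libraries lay below the Control mean.

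**Figure D2:**
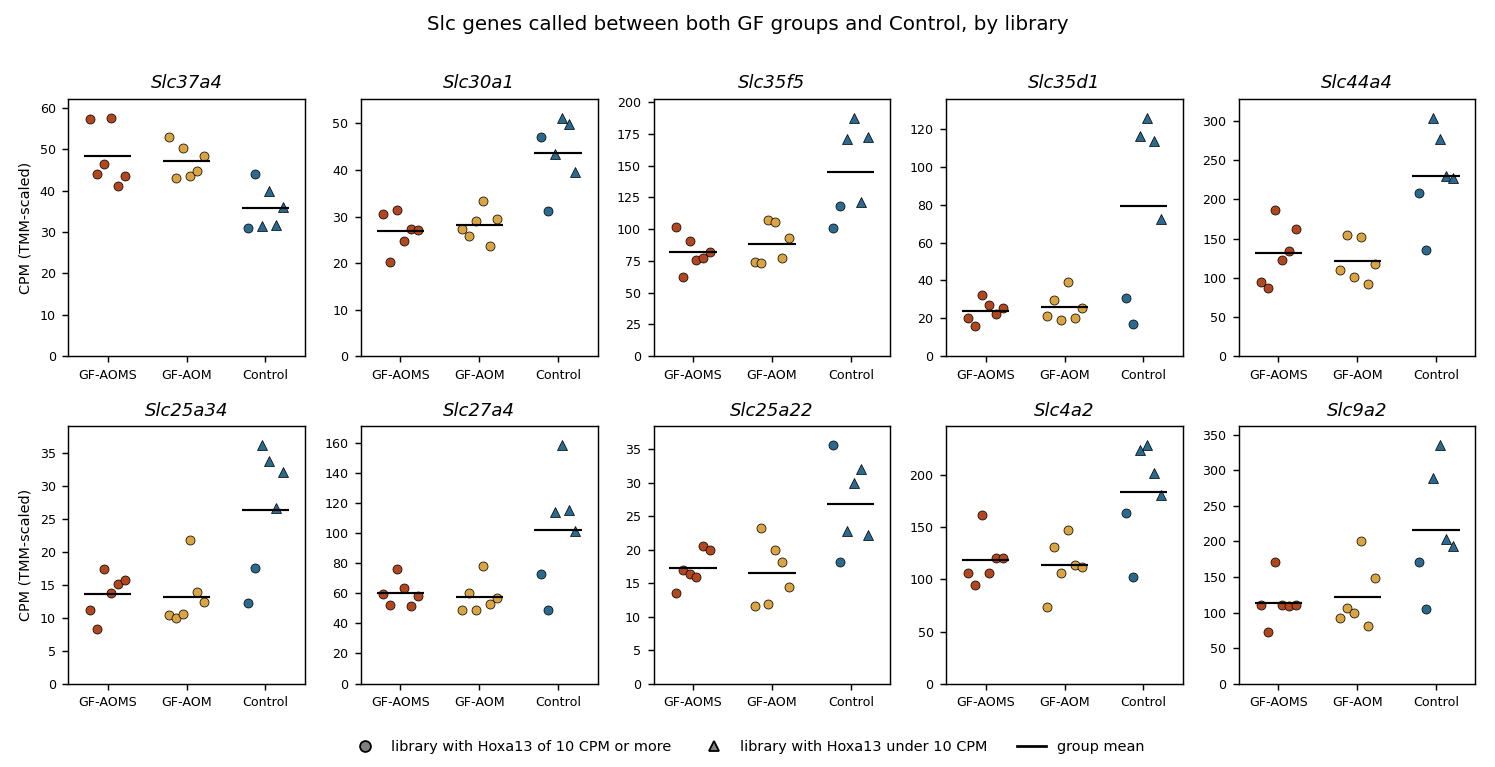
TMM-scaled CPM of the 10 Slc members that passed between both germ-free groups and Control, for each library of GF-AOMS, GF-AOM and Control (1 panel a gene; triangles are libraries with Hoxa13 under 10 CPM, circles the others, bars the group means). Slc30a1 has 5 Control libraries above all germ-free libraries, Slc35d1 has 4, and Slc37a4 is the member with the higher germ-free values.

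The count rests on few Control libraries. Leaving out Control replicate 2 gave 35 members called, while leaving out Control replicate 3 or 4 gave 3 and leaving out Control replicate 5 or 6 gave 4. Leaving out GF-AOMS replicate 3 gave 17 and leaving out GF-AOMS replicate 4 gave 6. The swing was not particular to Slc genes: over all 10897 genes these 18 fits called between 65 and 1084. Slc30a1, Slc35d1 and Slc35f5 passed in all 18 fits that each left out 1 library. Among those 18 fits, Slc44a4 passed in 16, Slc25a34 and Slc27a4 in 14, Slc37a4 in 11, Slc25a22 in 6, Slc4a2 in 5 and Slc9a2 in 4. Such fits keep most of Control replicates 3 to 6, so they cannot show whether a difference rests on that subset. In the other settings listed at the end, Slc30a1 passed in 6 of 10, Slc35f5 in 8 of 10 and Slc35d1 in 4 of 9.

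No role was tested as a class, and the counts and log2 medians by role are descriptions. The 23 amino acid and peptide carriers had no call, 16 negative members and a median of -0.07, which turned to 0.04 with the position term. The 20 carriers of sugars and carboxylates had 15 negative members, a median of -0.18 (-0.09 with the term) and the 1 higher call, Slc37a4. The 24 metal and haem carriers had a median of -0.05 (-0.08 with the term). Among numbered families, all 5 Slc22 organic ion carriers and all 5 members of the Slc2 glucose carrier family were negative (medians -0.47 and -0.19). So were all 4 Slc38 amino acid carriers and all 4 Slc44 choline-like carriers (medians -0.09 and -0.28). These families are named, out of 46, because every member was negative. Of all members 66.7% were negative, with a median of -0.10. With the position term the medians were -0.12 for Slc22, -0.03 for Slc2, 0.02 for Slc38, where the sign turned, and -0.12 for Slc44.

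**Figure D3:**
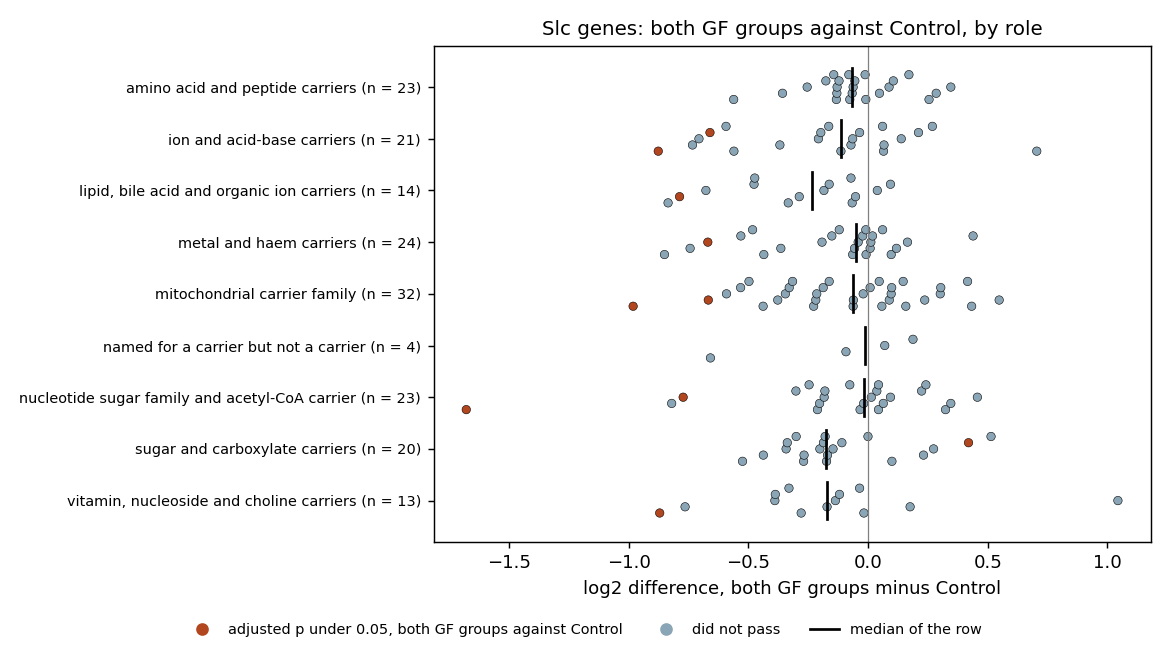
Log2 difference of both germ-free groups from Control for each Slc member, grouped by role; each point is 1 gene, red points passed an adjusted p under 0.05 and bars are medians. The roles overlap, with medians between -0.24 and -0.01, and 9 of the 10 red points are negative.

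Within Control, 14 members had all of Control replicates 3 to 6 above the other 14 libraries, against 2.87% of all genes. They included Slc35d1 (log2 ratio of means 2.16, Control replicates 3 to 6 over replicates 1 and 2), Slc25a34 (1.11), Slc27a4 (1.01), the organic ion carrier Slc22a23 (0.98), the amino acid carrier Slc6a14 (0.78) and Slc4a2 (0.65). The called members Slc44a4 (0.593) and Slc35f5 (0.575) were also among them. The rest were Slc37a1 (0.662), Slc52a2 (0.568), Slc22a5 (0.533), Slc39a5 (0.527), Slc25a1 (0.515) and Slc5a1 (0.303). Control replicates 3 to 6 lay wholly above Control replicates 1 and 2 for 36 members (20.7%, against 13.7% of all genes) and wholly below for 16 (9.2%, against 10.4%). These genes were picked out by their values and are given as a description.

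**Figure D4:**
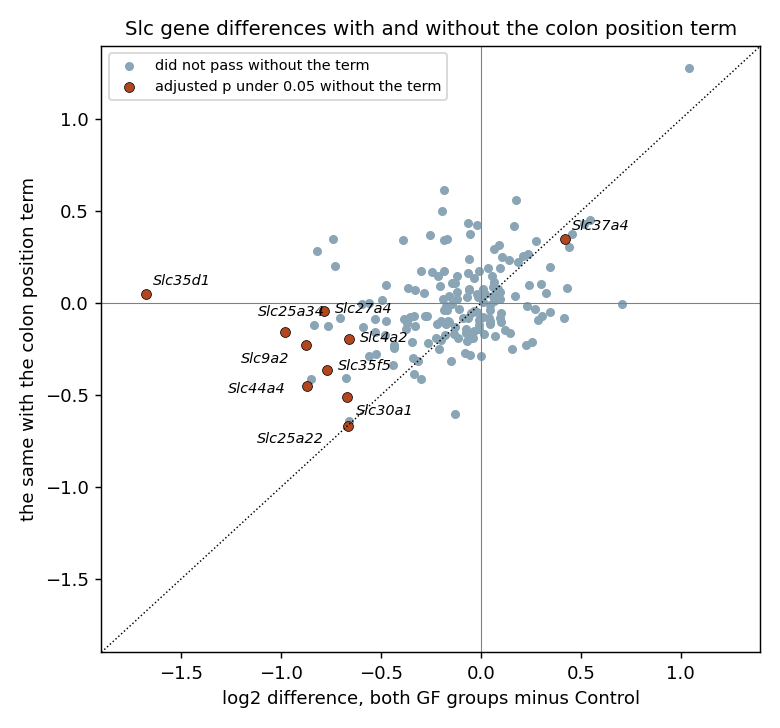
Log2 difference of both germ-free groups from Control for the Slc members, without the colon position term (x axis) and with it (y axis); each point is 1 gene, red points passed without the term, and equal values lie on the dotted line. Slc35d1 goes to 0.05 with the term, while Slc25a22 stays at -0.67.

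GF-AOMS alone against Control called 3 members, all lower: Slc30a1, Slc35d1 and Slc35f5. That is 1.72% of members, against 0.734% of all genes (0.624% lower, 0.11% higher). At an unadjusted p under 0.05 there were 45 members (25.9%, against 16.2% of all genes), and DESeq2 called 12, against 3.44% of all genes. The log2 differences were -0.70 for Slc30a1 (SE 0.13; edgeR adjusted p = 0.0304), -1.73 for Slc35d1 (SE 0.38; edgeR adjusted p = 0.0433) and -0.83 for Slc35f5 (edgeR adjusted p = 0.0304). Slc16a3 (MCT4), a lactate exporter, had 14.6, 25.0, 14.0, 20.1, 17.3 and 20.3 CPM in GF-AOMS and 14.1, 10.8, 13.4, 12.8, 10.5 and 8.85 CPM in Control. The groups overlap narrowly. Its log2 difference of 0.66 (SE 0.16; edgeR adjusted p = 0.0688) did not pass. The median over members was -0.12, against 0.01 over all genes. With the colon position term 0 members passed, against 0% of all genes. The differences with the term were -0.54 for Slc30a1, -0.00 for Slc35d1 and -0.42 for Slc35f5. Leaving out Control replicate 2 gave 17 calls, and leaving out any one of Control replicates 3 to 6 or of GF-AOMS replicates 1, 2, 4, 5 and 6 gave 0. Over all genes, the 18 fits that each left out 1 library called between 0 and 493.

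GF-AOM alone against Control called 0 of 174 members by edgeR, against 0.00918% of all genes. At an unadjusted p under 0.05 there were 47 members (27%, against 15.7% of all genes), and DESeq2 called 11, against 2.61% of all genes. The log2 differences of the members above were -0.64 for Slc30a1 (SE 0.13; edgeR adjusted p = 0.0792), -1.63 for Slc35d1 (SE 0.38; edgeR adjusted p = 0.0866), -0.71 for Slc35f5 (edgeR adjusted p = 0.0866), -0.93 for Slc44a4 (SE 0.21; edgeR adjusted p = 0.0832) and 0.40 for Slc37a4 (SE 0.11; edgeR adjusted p = 0.129). Slc8b1, a mitochondrial sodium/calcium exchanger, differed by 0.63 (SE 0.26; edgeR adjusted p = 0.278), and Slc35g1 by 0.44 (SE 0.16; edgeR adjusted p = 0.233). With the colon position term 0 members passed, against 0.00918% of all genes. Leaving out Control replicate 2 gave 18 calls and leaving out Control replicate 1 gave 3. Over all genes, the 18 fits that each left out 1 library called between 0 and 356. The GF-AOMS and GF-AOM comparisons share all 6 Control libraries, so their values are not independent.

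Cigarette smoke, GF-AOMS against GF-AOM, called 0 of 174 members by edgeR and 0 by DESeq2, against 0% of all genes by edgeR and 0.0275% by DESeq2. At an unadjusted p under 0.05 there was 1 member, 0.575% against 1.09% of all genes. The median difference was 0.01 over members and 0.01 over all genes. The member with the smallest p was Slc36a4, a proline and tryptophan carrier, which ranged over 12.1 to 20.7 CPM in GF-AOMS (median 16.5) and 14.5 to 29.2 CPM in GF-AOM (median 22.2). The groups overlap, and the log2 difference was -0.47 (SE 0.18, unadjusted p = 0.0184; edgeR adjusted p = 1). Next were Slc35a1 at -0.25 (SE 0.12, edgeR adjusted p = 1), the endosomal sodium/proton exchanger Slc9a9 at -0.38 (SE 0.22, edgeR adjusted p = 1) and Slc16a3 at 0.29 (SE 0.16, edgeR adjusted p = 1).

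A list of 20 carriers that colon epithelium is known for had 16 measured members, and the other 4 (Slc26a6, Slc51a, Slc15a1 and Slc37a2) were not analysed here. Of the 16, 1 passed between both germ-free groups and Control, Slc9a2 as given above. Slc26a3 had 227, 108, 291, 227, 180 and 301 CPM in the GF-AOMS libraries, 113, 202, 223, 358, 138 and 218 CPM in the GF-AOM libraries, and 236, 204, 74.2, 389, 108 and 61.1 CPM in the Control libraries. Control held both the highest and the lowest library. The log2 difference was 0.27 (SE 0.35; edgeR adjusted p = 0.649), and -0.03 with the position term. The water channel Aqp8, another gene of the colon surface, had 379, 282, 9.30, 292, 32.0 and 17.9 CPM in Control, low in the same 3 libraries as Slc26a3.

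The sulphate carrier Slc26a2 ranged over 70.4 to 326 CPM in GF-AOMS (median 199.8), 114 to 235 CPM in GF-AOM (median 165) and 154 to 383 CPM in Control (median 256), a log2 difference of -0.59 (SE 0.27; edgeR adjusted p = 0.214), and -0.01 with the position term. The apical sodium/proton exchanger Slc9a3 (NHE3), which pairs with Slc26a3, had medians of 140 CPM in GF-AOMS, 125 CPM in GF-AOM and 128 CPM in Control, a log2 difference of 0.14 (SE 0.28; edgeR adjusted p = 0.783), and 0.24 with the term. The sodium bicarbonate cotransporter Slc4a4 had medians of 39.1 CPM in GF-AOMS, 37.5 CPM in GF-AOM and 68.0 CPM in Control. Its log2 difference was -0.73 (SE 0.25; edgeR adjusted p = 0.124), but 0.20 with the position term. The sodium-potassium-chloride cotransporter of chloride secretion, Slc12a2, differed by -0.04 (SE 0.18; edgeR adjusted p = 0.919), and by 0.14 with the term.

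The phosphate carrier Slc20a1 had medians of 50.0 CPM in GF-AOMS, 48.2 CPM in GF-AOM and 51.9 CPM in Control, a log2 difference of -0.37 (SE 0.24; edgeR adjusted p = 0.344), and -0.11 with the position term. Control replicate 4 stood at 146.2 CPM and the other Control libraries at 32.98 to 58.48 CPM, and without it the difference turned to 0.07.

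Carriers of bacterial products and nutrients on the list gave no call. Slc16a1 (MCT1), an importer of butyrate, ranged over 134 to 305 CPM in GF-AOMS, 173 to 314 CPM in GF-AOM and 172 to 428 CPM in Control, a log2 difference of -0.20 (SE 0.19; edgeR adjusted p = 0.522), and -0.20 with the position term. The sodium-coupled butyrate carrier Slc5a8 had medians of 216 CPM in GF-AOMS, 199 CPM in GF-AOM and 196 CPM in Control, a log2 difference of -0.00 (SE 0.19; edgeR adjusted p = 1), and -0.29 with the term. The sodium glucose cotransporter Slc5a1 ranged over 47.6 to 93.4 CPM in GF-AOMS, 69.6 to 99.5 CPM in GF-AOM and 91.7 to 131 CPM in Control. The ranges overlap only narrowly, and its log2 difference was -0.44 (SE 0.12; edgeR adjusted p = 0.0602), and -0.23 with the position term. The glucose carrier Slc2a1 differed by -0.34 (SE 0.12; edgeR adjusted p = 0.117), and by -0.30 with the term. Slc6a14 differed by -0.56 (SE 0.24; edgeR adjusted p = 0.196), and by -0.00 with the term. The heavy and light chains of an amino acid exchanger, Slc3a2 and Slc7a5, differed by 0.05 (SE 0.18) and 0.11 (SE 0.25), and by -0.11 and 0.25 with the term. The bile acid carrier subunit Slc51b differed by -0.07 (SE 0.30; edgeR adjusted p = 0.909), and by 0.44 with the term.

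**Figure D5:**
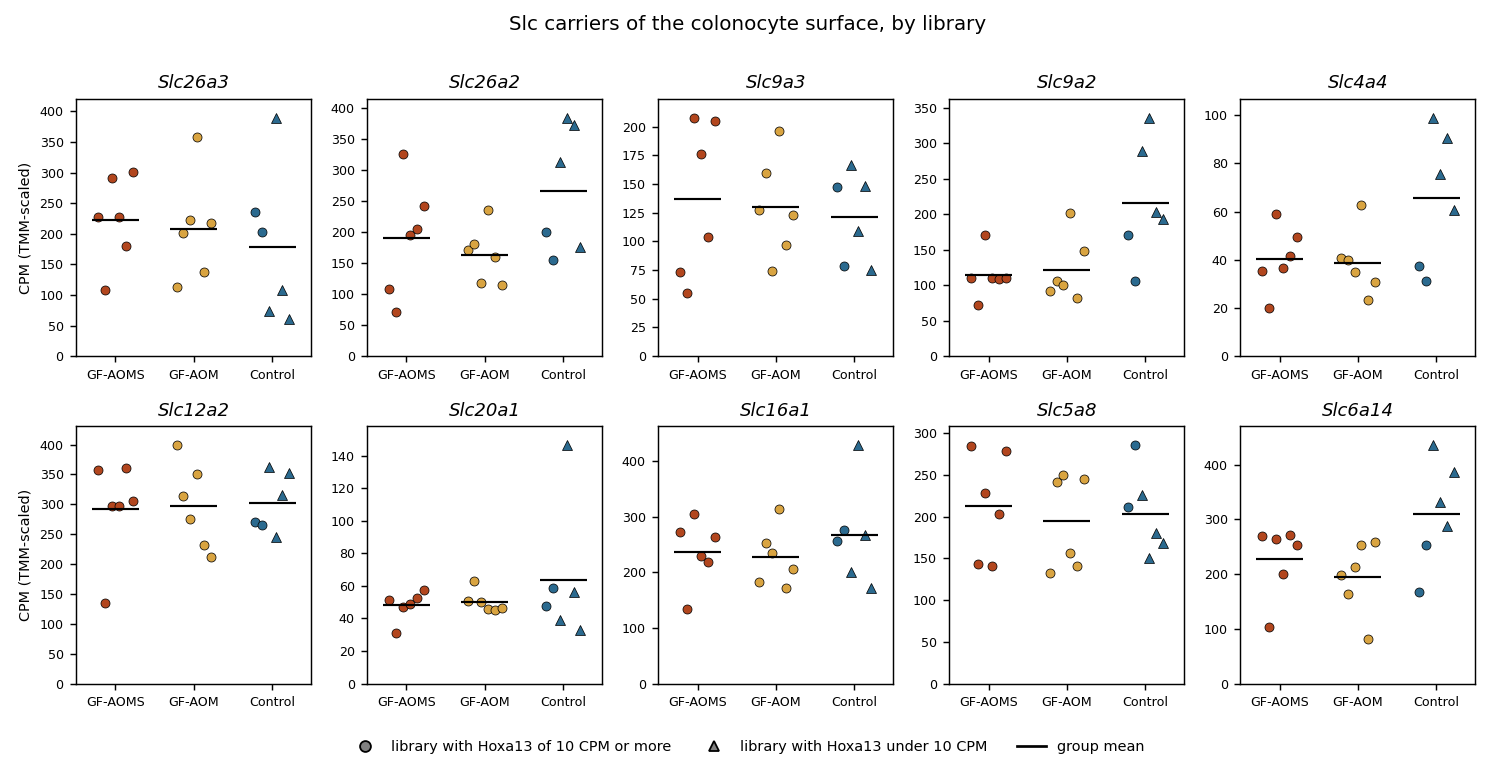
TMM-scaled CPM of 10 epithelial Slc carriers in each library of GF-AOMS, GF-AOM and Control (triangles are libraries with Hoxa13 under 10 CPM, circles the others, bars the group means). The groups overlap for each gene, and Slc26a3 spans 61.1 to 389 CPM within Control alone.

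Genes that work with these carriers were counted from lists. Of 14 measured sodium pump and channel genes, 1 fell in the germ-free groups together: the aquaporin Aqp11, by a log2 difference of -0.93 (SE 0.18; edgeR adjusted p = 0.0134), and -0.03 with the position term. Of 6 carbonic anhydrases, which supply bicarbonate to the anion exchangers, 2 fell. Of these 6, 5 were negative, with a median of -0.728 (-0.161 with the term). Car1 differed by -3.92 (SE 0.53; edgeR adjusted p = 0.00399), and by -0.64 with the position term. Car12 differed by -1.11 (SE 0.29; edgeR adjusted p = 0.0486), and by -0.08 with the term. None of 12 scaffold and chaperone genes and none of 6 genes of the aldosterone axis passed. The scaffold Slc9a3r1, which holds Slc9a3 and Slc26a3 at the apical membrane, differed by -0.66 (SE 0.22; edgeR adjusted p = 0.121), and by -0.64 with the term. In the smoke comparison no gene of these lists passed.

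Summed marker levels of other cell types are given beside these results, and their ranges overlapped between the groups. Median log2 differences of both germ-free groups from Control were -0.484 over 13 colonocyte markers (10 negative) and -0.497 over 6 endothelial markers (6 negative). With the position term these medians were -0.395 and -0.376. Smooth muscle markers had a median of 0.446 (0 of 9 negative) and plasma cell markers 0.819 (1 of 6 negative). With the term these were 0.177 and 0.194. The summed level of the 13 measured of 14 colonocyte markers was 11400 to 13180 CPM in GF-AOMS, 8941 to 13790 CPM in GF-AOM and 12630 to 18990 CPM in Control, and 2 of the 13, the brush border genes Cdhr2 and Cdhr5, fell in the germ-free groups by log2 differences of -1.27 and -1.34 (-0.72 and -0.81 with the position term). The sum of 6 plasma cell markers was 5039 to 13470 CPM in GF-AOMS, 8339 to 13640 CPM in GF-AOM and 1756 to 8906 CPM in Control. The sum of 9 smooth muscle markers was 2245 to 12690 CPM in GF-AOMS, 3717 to 6045 CPM in GF-AOM and 1660 to 4903 CPM in Control. The sum of 6 measured enteroendocrine markers was 127.8 to 365.4 CPM in GF-AOMS, 179.1 to 390.8 CPM in GF-AOM and 281.2 to 593.7 CPM in Control. Goblet cell, smooth muscle, plasma cell, macrophage, endothelial, red cell and neuron and glia lists had no called gene, while 2 of 6 enteroendocrine genes (Chga and Chgb) and 2 of 3 measured adipocyte genes (Cidec and Pparg) fell. The enteroendocrine list did not fall as a whole: 3 of the 6 were negative. Its median was -0.002, and -0.402 with the position term. The hormone genes Pyy, Insl5 and Cck were positive (0.483, 0.448 and 0.161) and did not pass. With the position term the log2 difference was -0.46 for Chga, against -1.83 without it, and -0.51 for Chgb, against -1.77. Cidec was at 0.08 with the term, against -2.09 without it, and Pparg at -0.01, against -0.78. The sum of the 3 adipocyte genes was 89.4 to 158.6 CPM in GF-AOMS, 103.2 to 161.6 CPM in GF-AOM and 95.57 to 392.4 CPM in Control. Within Control it was 166.5 to 392.4 CPM in replicates 3 to 6 and 95.57 to 120.4 CPM in replicates 1 and 2. For plasma cell markers, the sum in Control replicates 3 to 6 was 1756 to 6128 CPM, below the 8479 to 8906 CPM of replicates 1 and 2. The part of cell makeup in the Slc differences was not tested.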

How the data were processed

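The authors deposited one table of raw counts per gene, with FPKM beside them, for 18 libraries; the submitters' processing notes name featureCounts, DESeq2 and GRCm39, without versions. Per the labels' protocols, ribosomal RNA was removed and libraries were strand-specific; the sources used here do not state whether counting used strand. The table's coordinates match GENCODE M21 on GRCm38 (both ends within 100 bases for 91.4% of members), so positions are given on GRCm38. The deposited FPKM follow the deposited counts and gene length. Every gene in the table had at least 1 FPKM in at least 15 libraries, and 161 of the 174 members had it in all 18. Slc genes below that level are therefore not among the 174. No member was filtered out in addition.

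Counts were fitted with edgeR 4.0.16 (R 4.3.3) by the quasi-likelihood test over all 10897 genes and 18 libraries, with TMM scaling, two-sided, Benjamini-Hochberg adjustment and a threshold of 0.05. CPM are TMM-scaled. The standard error of a log2 difference was its size divided by the root of F. The colon position term marked libraries with Hoxa13 under 10 CPM, all 4 of them Control. Alternatives used DESeq2 1.42.0 and limma 3.58.1. The fit was tested on simulated data. Named genes were fixed epithelial carriers, members past the threshold, the smallest p-values of a comparison and the highest levels. The members, lists and roles were chosen with earlier results of these data known.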

Additional observations from a re-analysis of the deposited data

Results flagged for a closer look

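A single library stood apart from the other 5 of its group in 6 of 111 tests (37 genes in 3 groups, by the gap to the nearest library as a share of the group's range, past Dixon's critical value), where chance gives about 1 in 20. GF-AOMS replicate 2 had 135.2 CPM of Slc12a2, the others 297.1 to 360.1. GF-AOM replicate 1 had 269.7 CPM of Slc35g1, the others 159.9 to 200.2. GF-AOM replicate 4 had 21.86 CPM of Slc25a34, the others 10.01 to 13.97. GF-AOM replicate 2 had 53.38 CPM of the amino acid exchanger Slc7a5, the others 17.04 to 29.96, and 63.14 CPM of the phosphate carrier Slc20a1, the others 45.31 to 50.81. Control replicate 4 had 146.2 CPM of Slc20a1, the others 32.98 to 58.48.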

How the results depend on the processing

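Alternatives moved the number of Slc members called. For both germ-free groups against Control (10 members), DESeq2 called 24, limma on log2(FPKM + 1) 1 and on log2(FPKM + 0.1) 1, the colon position term 0, leaving out the low-Hoxa13 Control libraries 0, a correction for a slope with gene length 3, and leaving out libraries with a TMM factor under 0.9 21. For GF-AOMS against Control (3), the same settings gave 12, 0, 0, 0, 0, 0 and 6, and the fit of those 2 groups alone gave 0. For GF-AOM against Control (0), DESeq2 gave 11 and leaving out the low-TMM libraries 4. Over all genes, the main fit called 2.65%, 0.734% and 0.00918% in these comparisons, and DESeq2 called 6.37%, 3.44% and 2.61%. The colon position term gave 0.00918%, 0% and 0.00918%. The all-gene shares of the limma, low-Hoxa13, length, low-TMM, 2-group and block settings are not given here. For smoke every setting gave 0. The libraries with a TMM factor under 0.9 include Control replicate 2 (0.893), with Hoxa13 at 38.7 CPM. Leaving out that library alone gave 35 calls for both germ-free groups against Control. Leaving out 1 library at a time gave 3 to 35, 0 to 17 and 0 to 18 calls in those comparisons, and 0 for smoke. Over all genes the same fits gave 65 to 1084, 0 to 493 and 0 to 356 calls, and 0 for smoke. With the replicate number as a block, 8, 2, 0 and 0 members were called. The labels do not pair the libraries, and same-numbered libraries correlated between -0.62 and 0.52. Of 6 same-numbered pairs, 4 exceeded 0.1 for GF-AOMS and Control, 2 for GF-AOM and Control and 1 for GF-AOMS and GF-AOM. The best match was the same number in 3, 0 and 0 of these pairs. Whether same-numbered libraries share more than a number was not tested.

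Signs that turned for both germ-free groups, each cause not tested: with the position term Slc35d1 0.052, Slc26a3 -0.03, Slc4a4 0.20, Slc12a2 0.14, Slc3a2 -0.11, Slc51b 0.44, Slc25a5 -0.16, Slc25a3 -0.01 and Slc35a1 -0.08. Without the low-Hoxa13 libraries they were 0.053, -0.032, 0.20, 0.13, -0.11, 0.44, -0.16, -0.011 and -0.082. Slc5a8 was 0.009 by DESeq2 and with DESeq2's size factors in edgeR, 0.001 with a filter on low FPKM and 0.018 without low-TMM libraries. Slc12a2 was 0.17 with the length correction and 0.051 without low-TMM libraries. By limma with the larger and the smaller pseudocount, Slc3a2 was -0.032 and -0.037, and Slc25a3 -0.029 and -0.029. For GF-AOM against Control, Slc8b1 was -0.078 with the position term and -0.082 without the low-Hoxa13 libraries. For GF-AOMS against Control, Slc35d1 was 0.001 without them. Leaving out 1 library gave -0.074 to 0.12 for Slc5a8, -0.089 to 0.044 for Slc12a2, -0.057 to 0.28 for Slc7a5, -0.026 to 0.15 for Slc3a2, -0.50 to 0.068 for Slc20a1 and -0.19 to 0.14 for Slc51b. Precision is limited by 6 libraries a group and by the 2 Control libraries left once Hoxa13 is matched.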
